A study of Homo sapiens with 6 samples.

Results

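The genes that carry glucose through glycolysis, lactate export and the pentose phosphate pathway were followed in U2OS cells, an established human osteosarcoma line, after knockdown of the zinc finger transcription factor E4F1. The genes were taken by name from a list of 30 that covers glucose and lactate transporters, glycolytic enzymes, the PFKFB regulators and pentose phosphate enzymes. All 30 were found among 58219 gene identifiers, and all 30 were among the 15765 genes that passed the low-count filter. Polyadenylated RNA was sequenced from 3 libraries of cells infected with a scramble shRNA (control shRNA) and from 3 libraries of cells infected with an shRNA against E4F1 (E4F1 shRNA), all grown in DMEM with 10% FBS. Both groups were infected for 24 h and held for 48 h in puromycin, so each had passed through infection and selection. Each group was described as 3 independent pools of 1 cell line, and whether the pools were cultures kept apart throughout was not given, so the p-values measure the spread between these libraries.

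Glycolysis splits glucose into pyruvate in the cytosol. Hexokinase and phosphofructokinase commit the sugar, aldolase cleaves it, and pyruvate kinase closes the chain. Lactate dehydrogenase then turns pyruvate into lactate, which leaves the cell with a proton through the monocarboxylate transporters. The PFKFB enzymes make and remove the small sugar bisphosphate that activates phosphofructokinase, and the pentose phosphate pathway draws glucose phosphate off to make NADPH and ribose. Proliferating tumour lines such as U2OS are known for high glycolytic flux, and E4F1 is known for its control of pyruvate dehydrogenase genes, which act just past the end of glycolysis.

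Sequenced reads in genes numbered 14947085 to 16284450 in the control libraries and 16169103 to 16892139 in the E4F1 shRNA libraries. E4F1 itself was read 233, 286 and 297 times under control shRNA and 51, 53 and 41 times under E4F1 shRNA, a level 5.92-fold lower (adjusted p = 7.66e-10 by edgeR). Of 15 mesenchymal and bone markers, 11 exceeded 1 CPM in every library, VIM, SPARC, COL1A1 and FN1 among them. TWIST1 was at 0, and BGLAP and IBSP had mean levels of 0.108 CPM or less. COL1A2 was also low, with means of 0.771 CPM in control and 0.677 CPM in E4F1 shRNA libraries. The markers of that list summed to 6080 to 6290 CPM in control and 5530 to 5700 CPM in E4F1 shRNA libraries. Blood markers summed to 1.49 to 3.17 CPM over all libraries, with CD3E at 0, and endothelial markers to 9.71 to 12 CPM. Epithelial markers summed to 714 to 785 CPM, nearly all from KRT8 and KRT18, and genes high in packaging lines, CDH2 and NEFL above all, to 340 to 358 CPM, with INA at 0. The blood, endothelial, epithelial and packaging-line sums overlapped between the groups, while the mesenchymal sum did not, and its part in the results was not tested. The mean log2 CPM of 50 cell cycle genes was 7.12, 7.33 and 7.0 under control shRNA and 7.47, 7.47 and 7.36 under E4F1 shRNA, without overlap.

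Most of the 30 genes moved little. The regulatory gene PFKFB2 rose 1.58-fold, its paralogue PFKFB3 fell 1.24-fold, and the aldolase gene ALDOC, of very low level, fell 2.09-fold. Smaller falls were found for ALDOA, PFKL, ENO2, PKM, LDHB and PGLS, and RPE rose 1.11-fold. Altogether 8 of 30 genes fell and 2 rose at an adjusted p under 0.05 in edgeR's quasi-likelihood test, over 15765 genes tested. Of all genes tested 28.9% were called, 14.4% lower and 14.4% higher. The 8 falls come to 26.7% of the members. Among genes with an average log2 CPM of 5 or more, 18.4% fell and 21.7% rose, and of the 26 members at that level 6 fell and 2 rose. The median log2 fold change was −0.089 over the 30 genes and −0.01 over all genes, and 25 of the 30 stayed within 1.2-fold. The counts leaned on single libraries: 3 members fell without control library 3, 4 without E4F1 shRNA library 1 and 5 without E4F1 shRNA library 2, and 1 rose, PFKFB2, without control library 1 or 3 or without E4F1 shRNA library 2. By DESeq2 the calls of PFKL (adjusted p = 0.0649) and ENO2 (0.0741) were lost, without a low-count filter those of PFKL (0.0547), ENO2 (0.0913) and RPE (0.0675), and with strand ignored that of RPE (0.053). Over all genes, 4550 calls became 3031 without E4F1 shRNA library 2. The groups did not overlap in 18 of the 30 genes, against 41.8% of all genes tested. At an average log2 CPM of 5 or more they did not overlap in 16 of 26 members, against 52.9% of all genes at that level. Since these are bulk libraries, fewer cells with a transcript and less transcript per cell cannot be told apart.

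**Figure D1:**
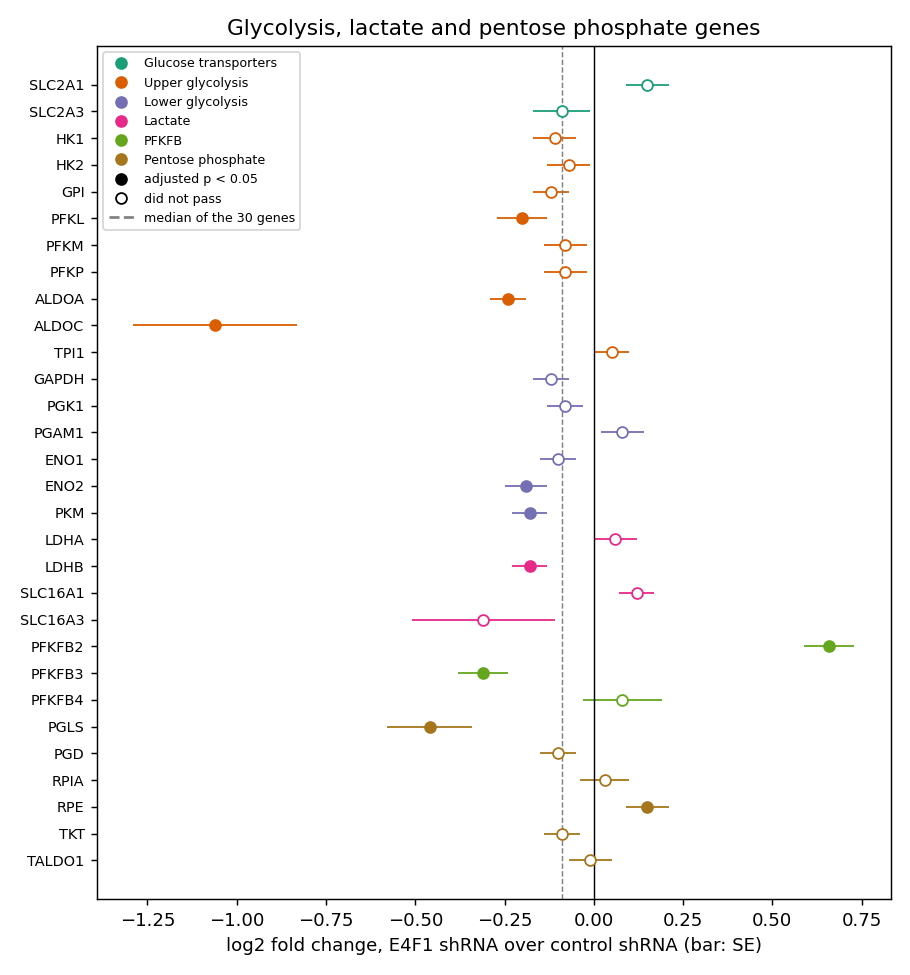
Log2 fold change (E4F1 shRNA over control shRNA, horizontal axis, with SE bars) of each of the 30 genes, grouped by role, filled where the edgeR adjusted p was under 0.05. PFKFB2 at 0.66 and ALDOC at −1.06 stand apart from the other 28 genes, which lie between −0.46 and 0.15.

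GC content moved with these results. All genes tested were sorted into 5 equal groups by the GC content of their annotated transcripts, and the median log2 fold change went from 0.122 in the group of lowest GC (up to 42.0%) to −0.152 in that of highest GC (57.6% and over). Of the 30 genes, 7 lay in the group of highest GC and 14 in the next. In the highest, 4 of 7 members fell (ALDOA, PFKL, PFKFB3 and PGLS), and 26.0% of all genes there did. In the next, 3 of 14 members fell (ALDOC, ENO2 and PKM), against 19.1%. Both genes that rose, PFKFB2 (45.2% GC) and RPE (43.4%), lay in the second group from the bottom, where 20.4% of all genes rose. LDHB (43.6%) fell in that same group, where 8.5% did. With an offset for GC content in the fit, the members' median was −0.031, and 4 genes fell: ALDOC, LDHB, PFKFB3 and PGK1. The part of GC content in the differences was not tested beyond this. The cell cycle score also moved with the groups: with it as a covariate, PFKFB2 (adjusted p = 0.00116, edgeR) was the 1 member called. Of the calls lost there, ALDOC (log2 −1.077), ALDOA (−0.224), PKM (−0.150), PFKL (−0.149), ENO2 (−0.145) and LDHB (−0.124) kept most of their size. PFKFB3 (−0.137), PGLS (−0.190) and RPE (0.075) lost more of theirs. Since the score did not overlap between the groups, this fit cannot tell the score and the knockdown apart. Over all genes, 4550 calls became 903 with it, so a lost call or a smaller value there says little of a single gene. The part of the cell cycle difference in the results was not tested.

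**Figure D2:**
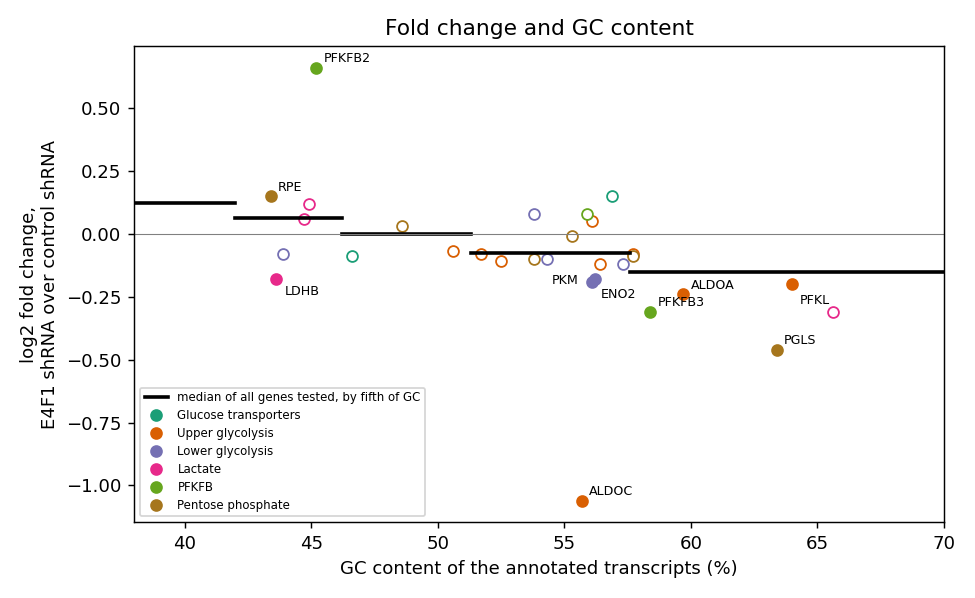
Log2 fold change of each of the 30 genes (vertical axis) against the GC content of its annotated transcripts in percent (horizontal axis), coloured by role and filled where called. Black lines give the median of all genes tested in each of 5 equal groups by GC content, which falls from 0.122 to −0.152 (the axis starts at 38%).

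The PFKFB genes code for bifunctional enzymes that set the level of the activator of phosphofructokinase. PFKFB3 is known for a high kinase activity in proliferating cells, PFKFB2 for regulation by phosphorylation in heart and other tissues, and PFKFB4 for induction by hypoxia. PFKFB2 (GRCh38 chromosome 1, 207034366 to 207081024, plus strand) had 32.3, 35.1 and 30.7 CPM under control shRNA and 50.9, 50.6 and 53.3 CPM under E4F1 shRNA. Every E4F1 shRNA library was above every control library, with means of 32.7 ± 2.24 and 51.6 ± 1.49 CPM (SD, n = 3 each). The log2 change came to 0.66 (SE 0.07, adjusted p = 2.92e-06 by edgeR), and the call held under all 18 alternatives, with values from 0.553 to 0.724. PFKFB3 (chromosome 10, 6144934 to 6254644, plus strand) went the other way, from 53.5, 53.4 and 61.2 CPM in control to 45.2, 42.9 and 47.9 CPM after knockdown. Its groups did not overlap either, and its log2 fold change was −0.31 (SE 0.07, adjusted p = 0.00392 by edgeR). This call held without any 1 library and with the GC-content offset (log2 −0.189, adjusted p = 0.0413). PFKFB4 had 10.8, 9.90 and 11.8 CPM in control and 11.1, 11.8 and 11.3 CPM in E4F1 shRNA cells. Its groups overlapped, with log2 0.08 (SE 0.11, adjusted p = 0.634 by edgeR).

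The ratio of PFKFB2 to PFKFB3 joins the rise of the one and the fall of the other, so it is no separate result. The log2 ratio of PFKFB2 to PFKFB3 reads, which does not depend on library scaling, was −0.73, −0.61 and −1.0 in control and 0.17, 0.24 and 0.15 in E4F1 shRNA libraries. PFKFB3 reads outnumbered PFKFB2 reads in every control library, and the order was the opposite in every E4F1 shRNA library. Reads also depend on length, and the merged exons of PFKFB2 (10197 bases) are longer than those of PFKFB3 (6114 bases). Per kilobase of merged exons PFKFB3 stayed the more abundant in E4F1 shRNA cells, at 7.42 RPKM against 5.06 RPKM for PFKFB2. The log2 ratio of reads differed by 0.97 between the groups (SE 0.118). The exact two-sided permutation p was 0.1, the smallest that 3 libraries against 3 allow, and 0.24 after Benjamini-Hochberg adjustment over the 12 paralogue pairs compared. PFKFB4 gained on PFKFB3 by 0.38 (SE 0.0775) and lost to PFKFB2 by 0.58 (SE 0.135), both without overlap and both at the same smallest p.

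A pair of stretches of the PFKFB2 transcript is shown because an earlier look at these libraries had tied the heptamer CTTATCT in 3' untranslated regions to higher levels in E4F1 shRNA cells. PFKFB2 was the 1 gene of the 30 whose annotated 3' untranslated regions hold it. Of 4 coding transcripts with such a region, only PFKFB2-202, whose region is 5452 bases long, had it, at 2 places on the plus strand of chromosome 1. They are given 5′ to 3′ from GENCODE release 29 on GRCh38 with the heptamer in capitals.
PFKFB2, heptamer at chr1:207075877-207075883: tgcttctcttCTTATCTcctaatccct
PFKFB2, heptamer at chr1:207075910-207075916: taatttagctCTTATCTgtattgttgt
Of the 1902 genes tested with this heptamer 35.5% rose and 8.0% fell, and of 11206 genes without it 13.4% rose and 16.8% fell. These shares come from the libraries in which the heptamer was found, so they are no independent support, and whether it bears on PFKFB2 was not tested.

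**Figure D3:**
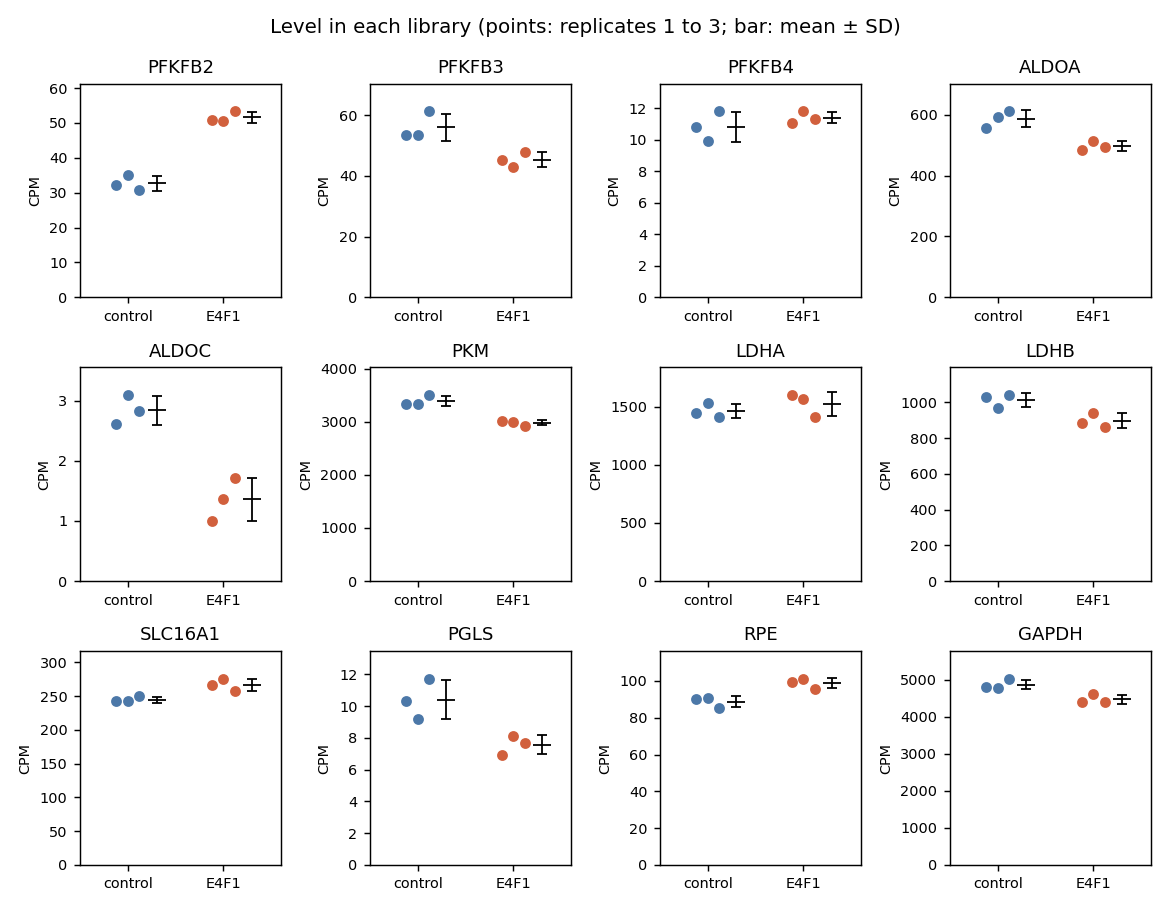
Level of 12 of the genes in CPM (vertical axis, from 0) in each library, with the control shRNA libraries in blue, the E4F1 shRNA libraries in orange and the mean ± SD in black. The groups overlap for PFKFB4 and LDHA and stand apart for the other genes shown. Of all genes tested, 41.8% did not overlap.

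Glucose enters through SLC2A1 (GLUT1) and SLC2A3 (GLUT3). SLC2A1 had 108, 115 and 111 CPM in control and 117, 126 and 128 CPM in E4F1 shRNA cells. All E4F1 shRNA libraries were higher, by log2 0.15 (SE 0.06), and the call was missed narrowly (adjusted p = 0.055 by edgeR). It was made with the GC-content offset (log2 0.246, adjusted p = 0.00208 by edgeR), without control library 2 (0.0184) and without E4F1 shRNA library 1 (0.0367), and also by DESeq2 (0.0492), with library totals (0.0499) and with the replicate block (0.0443). SLC2A3, close in sequence to SLC2A14 and uncertain to that extent, had 47.5, 41.7 and 55.0 against 42.9, 47.1 and 45.6 CPM. Its groups overlapped.

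Of the 9 genes of upper glycolysis, from hexokinase to triosephosphate isomerase, 3 fell and none rose, against 14.4% of all genes in each direction. ALDOA, the main aldolase of most tissues (chromosome 16, 30064164 to 30070457), had 557, 594 and 611 CPM in control and 483, 515 and 495 CPM after knockdown. The groups did not overlap, and the log2 change came to −0.24 (SE 0.05, adjusted p = 0.00299 by edgeR). It held without any 1 library but not with the GC-content offset (log2 −0.108, adjusted p = 0.112 by edgeR). ALDOC, the aldolase best known from brain (chromosome 17, 28573115 to 28577264, minus strand), rested on few reads, 39, 50 and 44 in control and 16, 23 and 28 in E4F1 shRNA libraries. It was lower in every E4F1 shRNA library, with 2.84 ± 0.242 against 1.36 ± 0.355 CPM (n = 3 each). Its log2 fold change came to −1.06 (SE 0.23, adjusted p = 0.00246 by edgeR). Its call held without any 1 library and with the GC-content offset (log2 −0.977), and DESeq2 gave it no adjusted p. ALDOC reads were also fewer per ALDOA read, with log2 ratios of −7.72, −7.57 and −7.74 in control and −8.87, −8.53 and −8.15 after knockdown.

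PFKL, the liver-type phosphofructokinase, had 57.1, 63.8 and 67.0 CPM in control and 52.8, 54.0 and 56.6 CPM in E4F1 shRNA cells. The highest E4F1 shRNA library lay just under the lowest control library. It fell by 0.20 on the log2 scale (SE 0.07, adjusted p = 0.0328 by edgeR). With 1 library left out the log2 values ran from −0.251 to −0.152, and the call was lost without control library 2 (adjusted p = 0.052) or 3 (0.141), without E4F1 shRNA library 1 (0.139) or 2 (0.118) and with the GC-content offset (log2 −0.025). The muscle and platelet types did not pass: PFKM had log2 −0.08 (SE 0.06) and PFKP −0.08 (SE 0.06). The ratio of PFKM to PFKL reads differed by 0.12 between groups (SE 0.0536) and overlapped. The 2 hexokinases, which trap glucose in the cell, did not pass either, with HK1 from 271 ± 17.3 to 250 ± 7.01 CPM and HK2 from 59.8 ± 4.16 to 56.8 ± 0.529 CPM. Their log2 ratio stayed at −2.18 ± 0.061 and −2.14 ± 0.027 (SD, n = 3 each). Per kilobase of merged exons, HK1 was the more abundant at 43.0 RPKM against 9.86 RPKM for HK2 in control cells. GPI, the isomerase between hexokinase and phosphofructokinase, had 258 to 276 CPM in control and 243 to 255 CPM after knockdown, without overlap (log2 −0.12, SE 0.05, adjusted p = 0.0853 by edgeR). TPI1, triosephosphate isomerase, had log2 0.05 (SE 0.05), and passed only with the GC-content offset without the replicate block (log2 0.144, adjusted p = 0.0378 by edgeR).

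Short promoter stretches are shown for 3 of the genes that fell, since their windows hold motifs of factors known to act on glycolytic genes or of the E4F family. ALDOC, which also fell, holds CACGTG and ACGTG in a stretch of 242 bases, and ALDOA holds ACGTG in a further stretch. Those stretches are not printed. Windows of 250 bases before to 50 after the gene start (RefSeq, GRCh38.p14) were at hand for 27 of the 30 genes, 52 windows in all. They were searched on both strands for CACGTG (the E-box bound by MYC and related factors), ACGTG (the core of the hypoxia response element, which CACGTG also holds) and TGACGT (the core shared by ATF, CREB and E4F sites). Capitals mark each match, the reverse complement included (in the first ALDOA stretch, overlapping matches to ACGTG and TGACGT), and sequences run 5′ to 3′ on the strand of the gene.
PFKFB3, chr10:6202809-6202891, plus strand: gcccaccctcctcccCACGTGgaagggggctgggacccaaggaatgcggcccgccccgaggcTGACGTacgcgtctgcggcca
ALDOA, chr16:30064086-30064122, plus strand: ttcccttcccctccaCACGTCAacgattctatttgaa
ALDOA, chr16:30064370-30064405, plus strand: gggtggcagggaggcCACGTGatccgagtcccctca
ENO2, chr12:6914447-6914481, plus strand: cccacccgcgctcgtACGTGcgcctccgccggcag
CACGTG stood in windows of 6 members (ALDOA, ALDOC, GAPDH, HK2, LDHA and PFKFB3), in 6 of 52 windows against 7.3% of 35116 windows of all genes. ACGTG stood in 18 of the 52 windows, against 21.4% of all. TGACGT stood in 6 of 52 windows, of ALDOA, ENO1, HK2, LDHA, PFKFB3 and SLC16A3, against 8.0% of all. Of those 6 genes with TGACGT, ALDOA and PFKFB3 fell, and ENO1, HK2, LDHA and SLC16A3 did not pass the test. No searched motif was in the windows of PFKL, PKM, LDHB, PGLS or RPE.

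Lower glycolysis, from GAPDH to pyruvate kinase, held the most abundant transcripts. Of its 6 genes 2 fell and none rose, against 14.4% of all genes in each direction. Among genes with an average log2 CPM of 5 or more, 18.4% fell and 21.7% rose. Per kilobase of merged exons GAPDH led in control cells with 1630 RPKM, followed by ENO1 with 487 and PKM with 395 RPKM. Per kilobase of the principal transcript the order of the last 2 was the opposite, with 1100 RPKM for ENO1 and 1250 RPKM for PKM. PKM, whose gene counts join the M1 and M2 forms of pyruvate kinase (chromosome 15, 72199029 to 72231822, minus strand), had 3330, 3340 and 3500 CPM in control and 3020, 3000 and 2930 CPM after knockdown. All E4F1 shRNA libraries were lower, by −0.18 on the log2 scale (SE 0.05, adjusted p = 0.0135 by edgeR). The call was lost without control library 3 (adjusted p = 0.0586) or E4F1 shRNA library 2 (0.0516) and with the GC-content offset (log2 −0.093, 0.181). ENO2, the enolase best known from neurons, had 51.9, 49.3 and 51.7 CPM in control and 46.0, 43.4 and 44.2 CPM after knockdown. It fell by 0.19 on the log2 scale (SE 0.06, adjusted p = 0.027 by edgeR). With 1 library left out the log2 values ran from −0.209 to −0.169, and the call was lost without control library 1 (0.109) or 3 (0.0715), without E4F1 shRNA library 1 (0.0577), 2 (0.125) or 3 (0.0756) and with the GC-content offset (log2 −0.104).

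The other genes of lower glycolysis did not pass. GAPDH, with 62 numbered pseudogenes in the annotation and uncertain to that extent, had 4800, 4780 and 5010 CPM in control and 4400, 4610 and 4390 CPM in E4F1 shRNA cells. Its groups did not overlap, with log2 −0.12 (SE 0.05, adjusted p = 0.0931 by edgeR), and limma-voom called it (adjusted p = 0.0426). Other members also had numbered pseudogenes, among them PGAM1 (13), LDHA (6), RPE (6), PKM (5), ENO1 (4) and TPI1 (4). ENO1, the common enolase, had 2480 to 2630 against 2320 to 2460 CPM (log2 −0.10, SE 0.05). PGK1, the first enzyme of the chain to make ATP, had log2 −0.08 (SE 0.05) and passed only with the GC-content offset (log2 −0.151, adjusted p = 0.0381 by edgeR). PGAM1, phosphoglycerate mutase, had log2 0.08 (SE 0.06). Together the 15 enzyme genes of upper and lower glycolysis took 1.32%, 1.33% and 1.38% of reads in genes under control shRNA and 1.22%, 1.26% and 1.23% under E4F1 shRNA. The lowest control library lay above the highest E4F1 shRNA library. Most of this sum, 13200 to 13900 CPM in control, came from GAPDH (4860 CPM), PKM (3390 CPM) and ENO1 (2570 CPM). Of those, PKM passed, and GAPDH and ENO1 did not. Among single genes with an average log2 CPM of 5 or more, 52.9% did not overlap.

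The lactate genes did not move together. LDHB, the lactate dehydrogenase subunit that favours lactate oxidation (chromosome 12, 21635342 to 21757857, minus strand), had 1030, 969 and 1040 CPM in control and 887, 943 and 862 CPM after knockdown. The groups did not overlap, and the log2 change came to −0.18 (SE 0.05, adjusted p = 0.0212 by edgeR). It was larger with the GC-content offset (log2 −0.249, adjusted p = 0.00234 by edgeR), but the call was lost without control library 1 (0.113) or 3 (0.0707) and without E4F1 shRNA library 1 (0.0903) or 3 (0.0719). LDHA, the subunit that favours lactate production, had 1450, 1530 and 1410 CPM in control and 1600, 1570 and 1410 CPM in E4F1 shRNA cells. Its groups overlapped, with log2 0.06 (SE 0.06, adjusted p = 0.48 by edgeR). The log2 ratio of LDHB to LDHA reads was −0.49, −0.66 and −0.44 in control and −0.85, −0.73 and −0.71 after knockdown. The difference of −0.24 (SE 0.0797) was without overlap, at the smallest exact permutation p of 0.1 (0.24 adjusted over 12 pairs). Which subunit was the more abundant per length depended on the length used: in control cells LDHA had 235 and LDHB 340 RPKM over merged exons, and 761 and 660 RPKM over the principal transcript.

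Lactate leaves through SLC16A1 (MCT1), found in most cells, and SLC16A3 (MCT4), known from highly glycolytic cells. SLC16A1 had 242, 242 and 250 CPM in control and 266, 275 and 257 CPM in E4F1 shRNA cells. All E4F1 shRNA libraries were higher (log2 0.12, SE 0.05, adjusted p = 0.0826 by edgeR), and the call was made without E4F1 shRNA library 3 (log2 0.151, adjusted p = 0.0496 by edgeR). SLC16A3 had 68, 48 and 77 reads in control and 48, 53 and 63 reads in E4F1 shRNA libraries, with log2 −0.31 (SE 0.20, adjusted p = 0.257 by edgeR). The spread of its control libraries covered the E4F1 shRNA values. Without control library 2, the lowest of them, it was called (log2 −0.502, adjusted p = 0.0368 by edgeR), and with the cell cycle covariate its sign turned (log2 0.360).

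**Figure D4:**
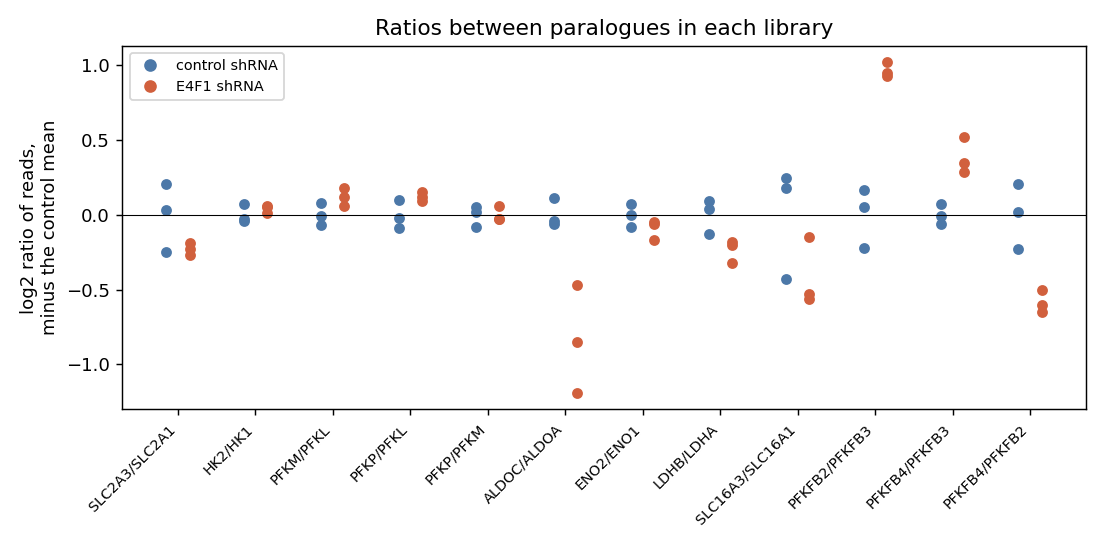
Log2 ratio of the reads of 2 paralogues in each library (vertical axis, minus the mean of the 3 control libraries), for 12 pairs, with control shRNA libraries in blue and E4F1 shRNA libraries in orange. The groups stand apart for 5 of the 12 pairs: ALDOC/ALDOA, LDHB/LDHA and the 3 PFKFB pairs, of which PFKFB2/PFKFB3 is 0.97 higher after knockdown. The 3 PFKFB pairs share their genes, so they are not independent. Of single genes tested, 41.8% did not overlap, and no share was computed for pairs of other genes.

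Of the 6 pentose phosphate genes, 1 fell and 1 rose (16.7% each way), near the 14.4% of all genes in each direction. PGLS, the lactonase of the oxidative branch (chromosome 19, 17511629 to 17521288), had 10.3, 9.22 and 11.7 CPM in control and 6.93, 8.09 and 7.69 CPM after knockdown. It was lower in every E4F1 shRNA library, by −0.46 on the log2 scale (SE 0.12, adjusted p = 0.0102 by edgeR). The call was lost without control library 3 (adjusted p = 0.0579), without E4F1 shRNA library 1 (0.0579) and with the GC-content offset (log2 −0.288, 0.089). PGD, the dehydrogenase that makes NADPH in the same branch, had 265 to 278 against 245 to 265 CPM, with log2 −0.10 (SE 0.05, adjusted p = 0.162 by edgeR). In the non-oxidative branch, RPE, the epimerase of ribulose phosphate (chromosome 2, 210002565 to 210022259), had 90.3, 90.6 and 85.2 CPM in control and 99.3, 101 and 95.7 CPM in E4F1 shRNA cells. RPE, with 6 numbered pseudogenes and uncertain to that extent, rose by 0.15 on the log2 scale (SE 0.06, adjusted p = 0.0443 by edgeR). With 1 library left out the log2 values ran from 0.126 to 0.183, and the call was lost without control library 1 (0.059) or 3 (0.16), without E4F1 shRNA library 1 (0.105) or 2 (0.158) and with the GC-content offset (log2 0.080). RPIA, the isomerase beside it, had log2 0.03 (SE 0.07). The carbon-shuffling enzymes TKT (log2 −0.09, SE 0.05) and TALDO1 (log2 −0.01, SE 0.06) did not pass.

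**Figure D5:**
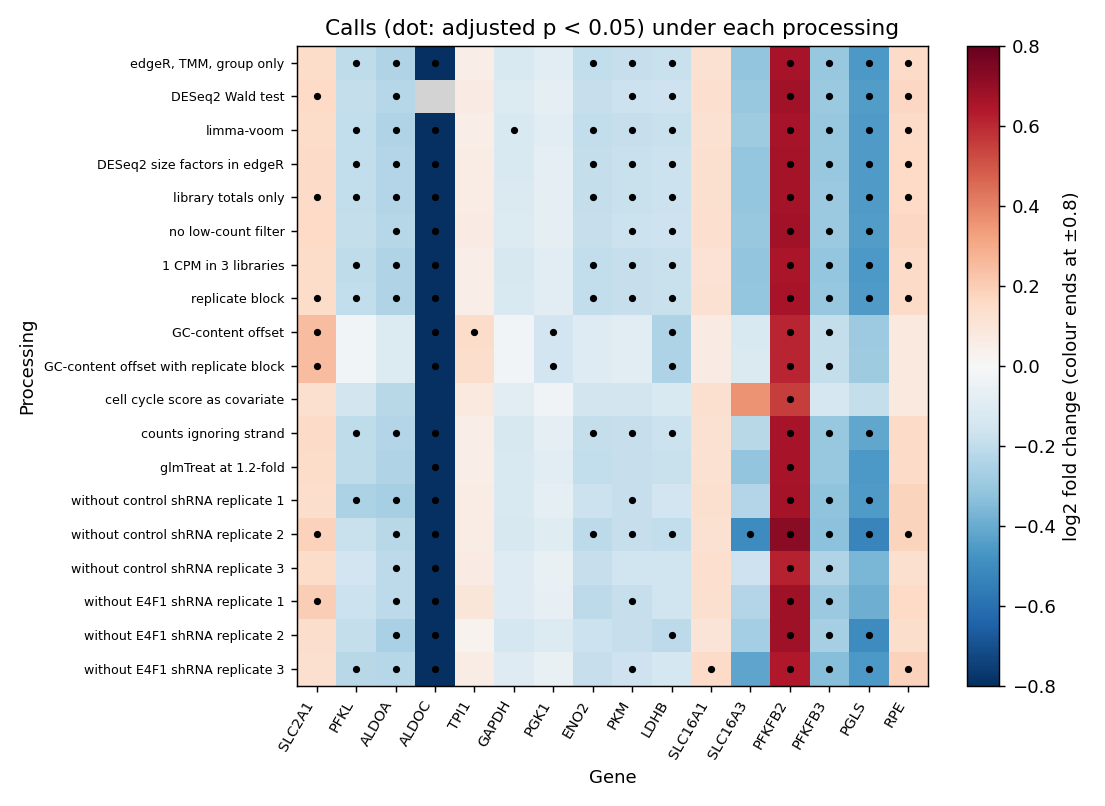
Log2 fold change (colour) of the 16 genes called in at least 1 processing (columns) under each processing (rows), with a dot where the adjusted p was under 0.05 and grey where DESeq2 gave none. PFKFB2 has a dot in every row, and 4 of the 10 genes called in the top row keep theirs with the GC-content offset.

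Other genes of the pathway were counted from lists drawn up with earlier results of these data known. Of 10 other glycolytic genes tested, 4 fell and none rose, against 14.4% of all genes in each direction, with a median log2 fold change of −0.216. HKDC1, a hexokinase-like gene, went from 22.2 ± 2.90 to 13.3 ± 0.583 CPM (n = 3 each; log2 −0.74, adjusted p = 5.69e-05 by edgeR). ADPGK, the ADP-dependent glucokinase, had log2 −0.21, G6PC3, a glucose phosphatase of most tissues, −0.22, and TIGAR, a phosphatase known to lower the flux of glycolysis, −0.22 with overlapping groups. TIGAR, which fell, was the 1 gene of these 10 that holds CTTATCT in an annotated 3' untranslated region. The list held 2 calls without control library 1 or 3 or without E4F1 shRNA library 1, 1 call without E4F1 shRNA library 2 and 6 without control library 2.

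Of 20 other sugar and monocarboxylate transport genes 6 rose and 2 fell (against 14.4% of all genes each way), with a median of 0.16. SLC16A7, the high-affinity lactate and pyruvate carrier MCT2, went from 20.1 ± 2.09 to 30.1 ± 2.58 CPM (log2 0.58, adjusted p = 0.000165 by edgeR). EMB, embigin, the accessory protein known to bring MCT2 to the membrane, went from 91.1 ± 4.70 to 123 ± 3.45 CPM (log2 0.43, adjusted p = 2.8e-05 by edgeR). BSG, basigin, which serves MCT1 and MCT4, had 295 ± 17.0 and 287 ± 3.47 CPM (log2 −0.04, SE 0.05). Of the 20, SLC16A7, EMB, SLC16A6 and SLC2A13 hold CTTATCT in an annotated 3' untranslated region. SLC16A6 (log2 0.34, SE 0.31) and SLC2A13 (log2 0.37, SE 0.15) did not pass, and the other risers lack the heptamer. SLC2A12 rose by 0.48, and the orphan or less known carriers SLC16A9 (0.68), SLC16A13 (0.59) and SLC16A14 (0.95) rose from control levels of 4.21 CPM or less. The genes that fell were the glucose transporters SLC2A4 (log2 −0.66, adjusted p = 0.0202 by edgeR) and SLC2A6 (log2 −0.41, adjusted p = 0.0363 by edgeR), named after their values were seen. The list held 5 calls without control library 1 or without E4F1 shRNA library 1 or 2. Of 10 other pentose phosphate genes 1 rose and 1 fell, against 14.4% of all genes each way. PRPS2, which makes the ribose donor of nucleotide synthesis, rose (log2 0.29) and H6PD, the enzyme of the endoplasmic reticulum, fell (log2 −0.26). Leaving out 1 library gave 1 to 4 calls there: 4 without control library 2, and 1 without control library 1 or 3 or without E4F1 shRNA library 1 or 2.

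Of 23 enzymes that draw on glycolytic intermediates 7 rose and 4 fell (30.4% and 17.4%). The share was 14.4% of all genes each way, and 21.7% up and 18.4% down among genes with an average log2 CPM of 5 or more. The list's median was 0.039. The serine branch leaves glycolysis at phosphoglycerate, and its 3 genes rose: PSAT1 from 94.3 ± 15.2 to 155 ± 6.67 CPM (log2 0.71, adjusted p = 7.59e-06 by edgeR), PHGDH by 0.47 and PSPH by 0.34. GFPT1, the entry to hexosamine synthesis, rose by 0.34, while its paralogue GFPT2 fell by 0.36 from 25.3 ± 2.01 CPM (adjusted p = 0.00544 by edgeR). AKR1B1, SORD and PMM2 also fell, by 0.19, 0.22 and 0.24, and these 4 falls were named after their values were seen. GPD2, the mitochondrial glycerol phosphate dehydrogenase, rose by 0.38, and UGP2, which makes UDP-glucose, by 0.31. Without control library 1 the list held 7 calls. Of 29 regulators 9 rose and 4 fell (31.0% and 13.8%, against 14.4% of all genes each way and the same 21.7% and 18.4% of abundant genes). MYC, a known activator of glycolytic genes, went from 187 ± 16.9 to 142 ± 6.64 CPM (log2 −0.40, adjusted p = 0.000199 by edgeR), and its partner MAX fell by 0.29. EGLN1, a prolyl hydroxylase that marks HIF for destruction, rose by 0.39, the MYC antagonist MXI1 by 0.29, PRKAA1, a catalytic subunit of AMPK, by 0.26, and SP1 by 0.24. HIF1A (log2 0.14, adjusted p = 0.0326 by edgeR) and EPAS1 (log2 0.33, adjusted p = 0.0109 by edgeR) rose as well. MYCN, of very low level, also rose, from 0.49 ± 0.181 to 1.18 ± 0.0455 CPM (adjusted p = 0.0106 by edgeR). The remaining called regulators were EGLN3 and PRKAA2, which rose, and MLXIP and PDK2, which fell. Without control library 3 the regulators held 8 calls. Of 23 hypoxia targets outside glycolysis 6 rose and 5 fell (26.1% and 21.7%, against 14.4% of all genes each way), with VEGFA at log2 0.81, EGLN1 and MXI1 as above, NDRG1 at −0.51, KDM4B at −0.40 and PLOD2 at −0.35. Without control library 1 that list held 7 calls.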

How the data were processed

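Per the labels' protocols, polyadenylated RNA was taken 72 h after infection and KAPA HyperPrep libraries were sequenced on a NextSeq instrument. The authors deposited raw counts of reads per gene for each strand of each library, made with STAR 2.5.1b on GRCh38, per the submitters' processing notes. For the annotation release, nothing was given in the sources used here. Rows that name no gene held 27.1% to 31.7% of the reads and were left out. Reverse-strand counts were used, since forward-strand reads numbered 885046 to 977742 per library. Of 58219 identifiers, 57881 matched GENCODE release 29 without their version. Genes were filtered with filterByExpr, scaled with TMM and tested with edgeR 4.0.16 (quasi-likelihood, group as the 1 term, R 4.3.3), with Benjamini-Hochberg adjustment over 15765 genes and a threshold of 0.05. CPM and RPKM were computed from the counts. Paralogue ratios were compared with an exact two-sided permutation test. The fits were checked on simulated data. Alternatives were DESeq2 1.42.0, limma 3.58.1 (voom), other scalings and filters, both strands together, a replicate block, a GC-content offset, a cell cycle covariate, a test against 1.2-fold and leaving out each library. The alternatives for the other gene lists, and levels per principal transcript, were added after seeing the data. The 30 members and all gene lists were chosen with earlier results of these data known. All members are reported, and from each other list (other glycolytic, transport, other pentose phosphate, branch enzyme, regulator and hypoxia genes) up to 6 called genes of smallest adjusted p. BSG was named besides, as the partner of SLC16A1 and SLC16A3, after its values were seen. Further called genes of the transport, branch enzyme and regulator lists were also named after their values were seen.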

Additional observations from a re-analysis of the deposited data

How the results depend on the processing

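The 8 members that fell became 5 with DESeq2, 4 with the GC-content offset (also 4 with the replicate block added), 0 with the cell cycle score as covariate, 1 in the test against 1.2-fold, and 3 to 8 when 1 library was left out. The 2 that rose became 1 without a low-count filter, with the covariate, with strand ignored or against 1.2-fold, and 1 to 3 with 1 library left out. Over all genes 4550 calls became 903 with the covariate, 977 against 1.2-fold and 3031 to 5370 with 1 library left out. Same-numbered libraries correlated at 0.04, 0.09 and 0.17 in their deviations from the group means, and not every library correlated best with its own number, so the numbers were not taken to pair the samples. The replicate block gave 4865 calls, with 8 members lower and 3 higher. Calls in the other lists were as follows. Other glycolytic genes had 4, then 2 with DESeq2, 0 with the covariate, 1 against 1.2-fold and 1 to 6 with 1 library left out. Transport genes had 8, then 5, 2, 3 and 5 to 10 under the same settings. Other pentose phosphate genes had 2, then 1 with DESeq2 and with the GC-content offset (1 with the block), 0 with the covariate, 0 against 1.2-fold and 1 to 4 with 1 library left out. Branch enzymes had 11, then 2 with the covariate, 2 against 1.2-fold and 7 to 11 with 1 library left out. Regulators had 13, then 8 with the GC-content offset (8 with the block), 3, 1 and 8 to 11 under those settings. Hypoxia genes had 11, then 3 with the covariate, 2 against 1.2-fold and 7 to 10 with 1 library left out. Some log2 fold changes changed sign, none of which passed in any fit except SLC16A3 without control library 2. With the covariate they were SLC2A3 at 0.213, HK2 at 0.070, PFKM at 0.035, PGAM1 at −0.054, LDHA at −0.083, SLC16A3 at 0.360 and RPIA at −0.041. With the GC-content offset they were PFKP at 0.033, TKT at 0.018 and TALDO1 at 0.069. TALDO1 had 0.0 with DESeq2, 0.001 with no filter, 0.014 without control library 2, 0.0 without control library 3 and 0.017 without E4F1 shRNA library 1. With 1 library left out, SLC2A3 ranged from −0.174 to 0.019, the latter without control library 3, and the PFKP to PFKM ratio from −0.036 to 0.029, with −0.036 without control library 3 and −0.026 without E4F1 shRNA library 1. The causes were not tested. Depth limits ALDOC, with 16 to 50 reads per library, and SLC16A3, with 48 to 77.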
